A study of Mus musculus with 12 samples.

Results

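In mouse liver, RNA polymerase II (Pol II) and the signal of libraries titled H3K4 were compared by ChIP-seq along 532 short stretches of the genome, most of them genes of RNA polymerase III (Pol III) with 150 bp on each side. Pol II was measured by its subunit RPB2 (n = 2 libraries) and the mark by the H3K4-titled libraries (n = 2), which are 4 of the series' 12. The other 8 libraries, 2 each of the Pol III subunits RPC1 and RPC4, H3K36-titled and input chromatin, serve here as background. All 532 stretches that the 12 files share were used, whatever their values, and 1 stretch of the X chromosome that some files lack was left out.

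All libraries came from livers of male C57/BL6 mice of 12 to 14 weeks, with no allele or agent that differs between groups. The animals lived for 2 weeks in 12 h of light and 12 h of darkness, then for 7 days with food from ZT12 to ZT24 (ZT, hours after lights on). Livers of 5 mice were taken at ZT02, and of 5 mice at ZT26 as the biological replicate. The labels do not give the time of each replicate number or say whether livers were pooled, so p-values reflect how far replicate libraries differ. The error of a stretch was estimated jointly from the 4 compared libraries and drawn toward a trend across stretches. An RPB2 call therefore rests partly on how far the mark libraries differ, and the reverse. Whole liver holds several cell types, and a signal in few cells cannot be told apart from a weak one in all. No stretch was chosen as a liver marker gene, and the tissue label was not checked here.

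Pol III makes short RNAs that do not code for protein, among them tRNAs, 5S rRNA, U6 and 7SL RNA. A tRNA gene carries its promoter, the A and B boxes, inside the transcribed part. Pol II transcribes protein-coding genes and some small nuclear RNAs. Trimethylation of histone H3 at lysine 4 (H3K4me3) is known from the nucleosomes around active Pol II start sites, while H3K36me3 is known from the bodies of transcribed genes. Pol II and H3K4me3 are both known to occur next to many active tRNA genes, which are often flanked by CpG-rich DNA.

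The labels of the histone libraries contradict each other. Libraries titled H3K4 carry an antibody field that names H3K36me3, and the reverse holds for those titled H3K36. In the data, mean scaled coverage of the 34 stretches within 500 bp of a protein-coding start was 2.58 and 2.35 times that of 364 stretches outside genes and far from starts in the H3K4-titled libraries, and 1.35 and 1.21 times in the H3K36-titled ones. Within genes and away from starts lay 97 stretches, copies of the 5S rRNA gene among them. There the same ratio was 0.263 and 0.25 for H3K4-titled and 5.16 and 4.88 for H3K36-titled libraries. Medians gave another picture. In the H3K4-titled libraries they were 1.38 and 1.35 within genes and 0.386 and 0.442 outside. In the H3K36-titled libraries they were 3.03 and 2.86 within genes and 1.85 and 2.54 outside. The means thus follow the titles and go against the antibody field, but they do not settle the label. The Pol III libraries had ratios much like the H3K4-titled ones, 2.36 to 2.57 near starts and 0.33 to 0.394 within genes. Input had 1.288 and 1.145 near starts and 1.31 and 1.04 within genes. The libraries are called H3K4-titled, or the mark, below.

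Scaled coverage is the mean number of reads over a base after each library is brought to the total of the median library, so that the mean over all bases of the stretches is 5.47 in every library. Over the stretches, the RPB2 libraries held 14779 and 13848 read equivalents of 76 bases, the H3K4-titled libraries 17033 and 26665, and input 3563 and 3365. A median stretch held 8.34 and 10.7 RPB2 reads, 5.45 and 8.81 H3K4-titled reads, and 5.41 and 5.50 input reads. No read covered 4 and 6 of the 532 stretches in RPB2, and 102 and 70 in the H3K4-titled libraries. The stretches comprised 391 with predicted tRNA genes, 50 of 5S rRNA genes, 77 with no gene matched, and a few with U6, 7SL, Y and other RNA genes. The 50 5S stretches, all on chromosome 8, are near-identical copies among which reads were divided, so they are not independent of each other.

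Sequences of 3 stretches show the kinds of pattern that follow. All are from the mm9 genome and are given 5′ to 3′ along the strand of the gene where there is one. The stretch near Rab11a had the mark on 1 side of the gene, that near Sacm1l had RPB2 mainly on 1 side, and that near Parp16 had RPB2 without the mark. Capitals mark the predicted tRNA gene, and near Parp16 the letters GATGGCTCA and AAGAGCAC, explained where that stretch is described.
tRNA-Gln (CTG) near Rab11a, chr9:64585703-64586002, plus strand: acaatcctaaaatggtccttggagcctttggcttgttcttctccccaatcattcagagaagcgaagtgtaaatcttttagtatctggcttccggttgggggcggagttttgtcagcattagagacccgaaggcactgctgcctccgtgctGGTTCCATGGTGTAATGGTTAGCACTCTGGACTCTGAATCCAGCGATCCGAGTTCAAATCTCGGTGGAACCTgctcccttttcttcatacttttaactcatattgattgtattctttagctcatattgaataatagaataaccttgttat
tRNA-Arg (ACG) near Sacm1l, chr9:123438466-123438765, minus strand: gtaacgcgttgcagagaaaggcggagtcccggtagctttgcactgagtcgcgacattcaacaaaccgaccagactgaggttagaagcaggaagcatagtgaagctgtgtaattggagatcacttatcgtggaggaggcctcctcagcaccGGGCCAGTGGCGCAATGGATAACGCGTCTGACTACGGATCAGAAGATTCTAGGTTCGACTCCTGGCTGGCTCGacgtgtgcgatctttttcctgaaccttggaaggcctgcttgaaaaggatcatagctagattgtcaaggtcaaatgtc
stretch with no gene matched near Parp16, chr9:65049252-65049551, plus strand: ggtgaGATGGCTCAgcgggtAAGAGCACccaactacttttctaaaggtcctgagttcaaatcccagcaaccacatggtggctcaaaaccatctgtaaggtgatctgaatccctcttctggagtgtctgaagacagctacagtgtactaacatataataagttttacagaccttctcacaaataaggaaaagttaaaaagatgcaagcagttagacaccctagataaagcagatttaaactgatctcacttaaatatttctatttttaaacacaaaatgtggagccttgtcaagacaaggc
These windows of 300 bp hold 8, 17 and 1 CpG dinucleotides, respectively.

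Pol II and the mark were mostly high at the same stretches. A stretch was called high for a group when both libraries placed it at or above their 0.75 quantile, and not high when both placed it below the median. By these ranks, which no scaling changes, 108 stretches were high for RPB2 and 122 for the mark, and 69 of 532 were high for both, or 13% of all. The shared stretches made up 63.9% of those high for RPB2 and 56.6% of those high for the mark. Only 9 stretches (1.69%) were high for RPB2 and not high for the mark, and 2 (0.376%) were high for the mark and not for RPB2. The other 30 high for RPB2 and 51 high for the mark lay between the limits in the other group. Across all 532 stretches the mean scaled coverage of RPB2 and the mark had a Spearman's rho of 0.786. Between replicates rho was 0.864 for RPB2 and 0.928 for the mark, and rho between the signals was thus somewhat below that between replicates. These are descriptions across stretches, which share libraries and depth.

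The limits lay where values run closely together. For the first RPB2 library the nearest values were 4.53 outside and 4.6 inside, and for the second 4.67 and 4.68. For the first H3K4-titled library they were 4.43 and 4.43, and for the second 4.27 and 4.35. These limits lie near the input medians of 4.55 and 4.83, so a stretch high by rank need not exceed input. Near Rab11a, for example, RPB2 was 7.53 and 6.53 and input 7.27 and 5.63. Over the 69 stretches high for both, median RPB2 was 10.4 and 11.7 and median input 5.38 and 5.04. With limits at the 0.8 quantile 51 stretches were high for both, and with coverage taken within 75 bases of the Pol III summit 59 were, of which 50 were among the 69. In the same window 7 stretches were Pol II only, 6 of them among the 9. Leaving out a library can only add members: the 2 mark-only stretches became 7 without either RPB2 library and 4 without H3K4-titled replicate 1, and the 9 Pol II-only stretches became 14 without RPB2 replicate 2.

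**Figure D1:**
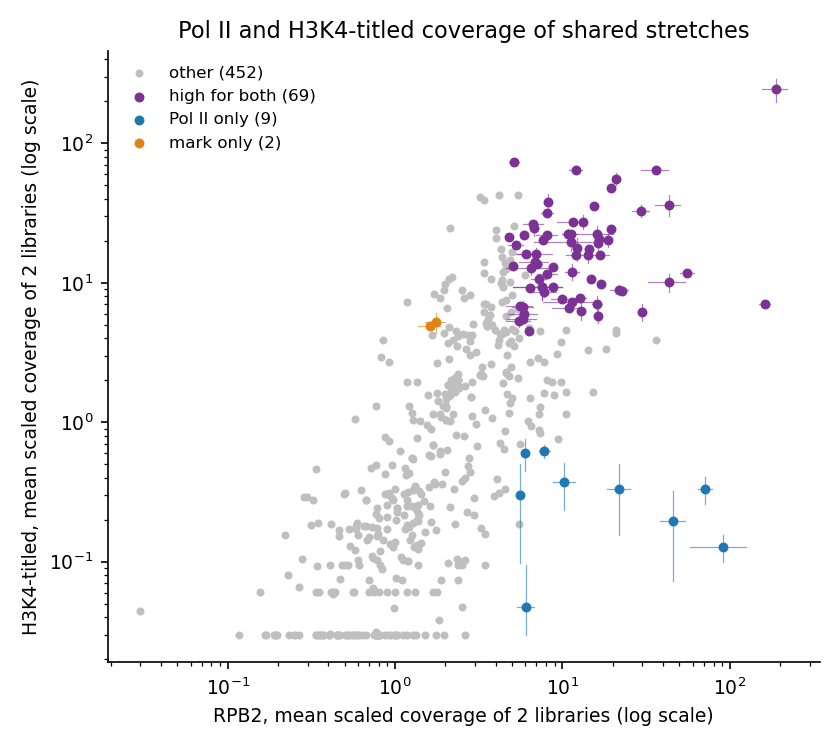
Each point is 1 of the 532 stretches, with mean scaled coverage of the 2 RPB2 libraries on the horizontal and of the 2 H3K4-titled libraries on the vertical log axis, and lines from one replicate to the other for the 80 classed stretches. Values under 0.03 are drawn at 0.03. The 69 stretches high for both form the upper right, and the 9 Pol II-only stretches lie below them. The 2 mark-only stretches lie at RPB2 means of 1.61 and 1.75 and mark means of 4.92 and 5.25.

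Stretches high for both were mainly tRNA genes occupied by Pol III. Of the 69, 61 held tRNA genes (88.4%, against 73.5% of all stretches), 6 had no gene matched, and 1 each held the gene beside Parp2 and a vault RNA gene. None was a 5S stretch. Their median Pol III coverage, a value the classes did not use, was 16.1 (mean of 4 libraries), against 1.89 over all stretches. Their median CpG content was 4.83 per 100 bp, against 2.96 over all. The B box (GGTTCGANTCC, searched on both strands) was found in 33 of 69, or 47.8%, against 29.3% of all stretches. Input was alike, at medians of 5.38 and 5.04 against 4.55 and 4.83 over all. The copies are not all distinct: 2 tRNA-Gly (TCC) stretches near Fcgr3 had identical values in all 4 libraries.

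Of all 391 tRNA stretches 15.6% were high for both. By amino acid the highest shares were 3 of 9 tRNA-Tyr stretches, 7 of 24 tRNA-Gly, 6 of 22 tRNA-Arg, 4 of 15 each of tRNA-Pro and tRNA-Thr, 5 of 19 tRNA-Glu and 6 of 23 tRNA-Leu. The lowest were 1 of 33 tRNA-Ala and 2 of 55 tRNA-Cys. These shares were not tested. The median tRNA-Cys stretch had scaled coverage of 0.867 and 0.861 in RPB2 and 0.0377 and 0.107 in the H3K4-titled libraries, and the median tRNA-Ala stretch 0.709 and 0.773 in RPB2 and 0.191 and 0.122 in the mark. The 2 tRNA-Cys (GCA) stretches high for both lie side by side on chromosome 11 near Plxdc1. Their RPB2 coverage was 7.91 and 7.47 at one and 6.12 and 5.65 at the other, with mark coverage of 20.03 and 20.8, and of 21.5 and 22.4.

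A minority of the stretches high for both lay beside a protein-coding start. Of the 34 stretches within 500 bp of a protein-coding start, 15 were high for both (44.1%, against 13% of all stretches). From 500 to 2000 bp it was 7 of 37, and farther away but outside genes 47 of 364 (12.9%). Deep inside protein-coding genes it was 0 of 97. The 364 hold no 5S stretch, and the 97 include near-identical 5S copies. Of all 50 5S stretches, 0 were high for both. Of the 69 stretches, 47 thus lay over 2000 bp from any annotated start. Those 47 had median RPB2 coverage of 9.24 and 10 and mark coverage of 14.4 and 14.2. The 15 stretches near starts had RPB2 medians of 13.6 and 14.8 and mark medians of 15.4 and 14.6. No test was made between these classes.

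By the sum of both log2 levels, 5 stretches led the class. The first, on chromosome 8 (19784551 to 19785003), had no gene matched and lies 32548 bp past 4930467E23Rik, the nearest protein-coding gene. Its RPB2 coverage was 157 and 221 and its mark coverage 198 and 292, but input also reached 26.5 and 18.7 there, far above the input median of 4.55 and 4.83. Its Pol III coverage was 0.902. The part of its input excess in these values was not tested.

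The others had low input. The tRNA-Glu (TTC) stretch in an intron of Elf1, a transcription factor of the ETS family, and 441 bp from the start of Wbp4 (chr14:79881325-79881696) had RPB2 coverage of 29.6 and 42.6 and mark coverage of 61.8 and 66.7. At the tRNA-Trp (CCA) stretch 9462 bp before Tmpo (chr10:90644007-90644378) RPB2 was 36 and 50.4 and the mark 30.2 and 42.3. A stretch of 1170 bp with no gene matched near Klrb1c (chr6:128709861-128711030) had RPB2 of 20.7 and 21.3 and a mark of 61.7 and 50.2. In each of these, both signals exceeded every input value of the stretch.

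The fifth stretch sets Pol II and the mark apart although both were high. It lies 193 bp before the start of Zfp259 (chr9:46080610-46081261), in which no Pol III gene was matched. RPB2 coverage was 174 and 150, while the mark was 7.37 and 6.79 and Pol III 0.592. Scaled to library totals, RPB2 exceeded the mark by 4.50 in log2 (SE 0.16, limma adjusted p = 3.76e-05). It kept a difference of 1.09 when libraries were anchored to stretches with little Pol III, a scaling that favours the mark.

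**Figure D2:**
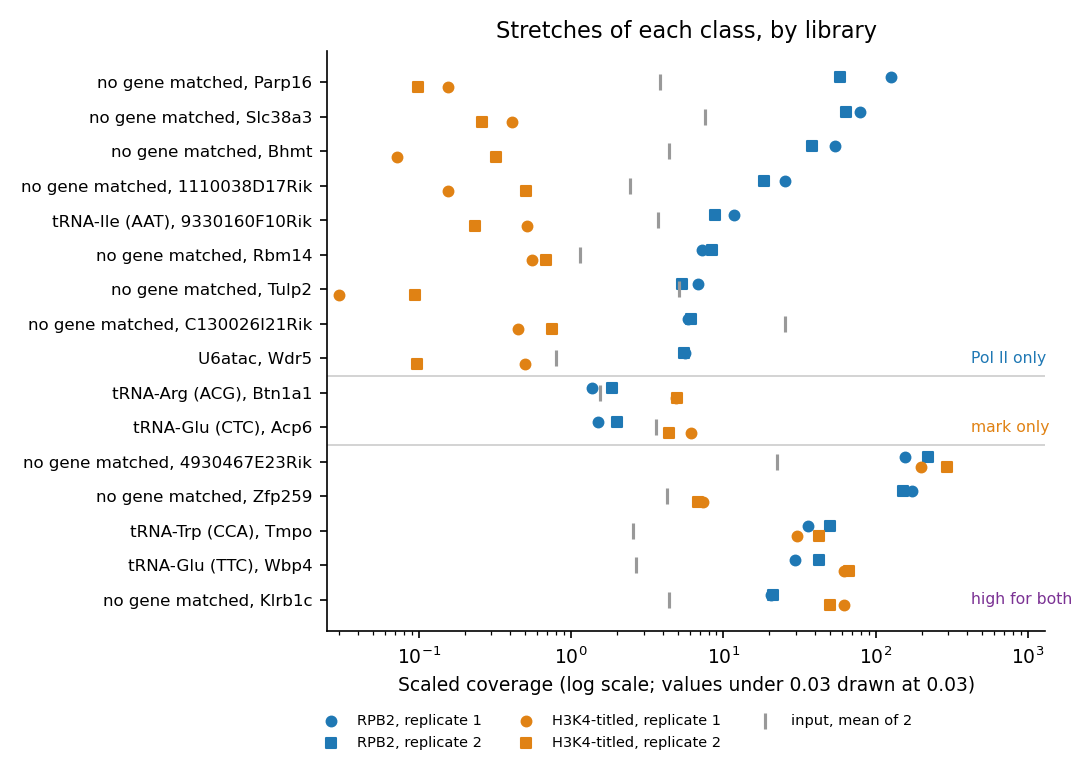
Scaled coverage of the 2 RPB2 libraries, the 2 H3K4-titled libraries and the input mean on a log axis, at the 5 leading stretches high for both, the 2 mark-only stretches and the 9 Pol II-only stretches, each named by its gene and the nearest protein-coding start. In the Pol II-only stretches RPB2 lies between 5.34 and 125, and the mark does not exceed 0.755.

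Pol II without the mark was found mostly where no Pol III gene was matched. Of the 9 Pol II-only stretches, 7 had no gene matched and the others were U6atac and a tRNA-Ile (AAT). Median Pol III coverage was 0.928 and median CpG content 0.873 per 100 bp, near the 0.81 and 1.19 of all 77 stretches with no gene matched. None lay within 500 bp of a protein-coding start, where 6.39% of all stretches lay. Their H3K36-titled coverage had medians of 4.99 and 5.65, against 2.14 and 2.55 over all stretches and 3.50 and 3.92 over those with no gene matched, from libraries of 1754 and 1273 read equivalents in all.

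The highest was upstream of Parp16 by 13081 bp (chr9:65049094-65049551). RPB2 coverage was 125 and 58.2 and mark coverage 0.155 and 0.0990, with input of 5.94 and 1.72. It overlaps an annotated gene of U5, a small nuclear RNA of the spliceosome that Pol II transcribes, by 19 bp. Others lay beyond the 3′ ends of genes. The stretch 1286 bp past Slc38a3, a glutamine transporter (chr9:107551218-107551973), had RPB2 of 78.5 and 64.2 and a mark of 0.408 and 0.260. The stretch 1585 bp past Bhmt, the liver's betaine-homocysteine methyltransferase (chr13:94384987-94385514), had RPB2 of 53.8 and 38.1 and a mark of 0.0725 and 0.321. At each of these 3, both RPB2 libraries lay far above both mark libraries and input. The stretch 4416 bp past Ccs had RPB2 of 7.22 and 8.39 and a mark of 0.554 and 0.688.

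Introns held a further 3. In 1110038D17Rik (chr10:74967149-74967601) RPB2 was 25.2 and 18.4 and the mark 0.157 and 0.503. In Dhdh (chr7:52740441-52740916), a dihydrodiol dehydrogenase gene, RPB2 was 6.80 and 5.34 and the mark 0 and 0.0952, but input was 5.07 and 5.11, and the H3K36-titled libraries reached 66.0 and 86.2. In C130026I21Rik RPB2 was 5.90 and 6.12 while input was 30.3 and 20.6. RPB2 was thus close to input in Dhdh and below it in C130026I21Rik, and these stretches are high by rank among RPB2 values only. The log2 difference in C130026I21Rik also lost its sign with anchoring (3.19 with totals, -0.06 anchored).

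Most Pol II-only stretches with no gene matched held letters found in a repeat, as did a minority of all stretches with no gene matched. B2 elements are short mobile elements of rodent genomes that Pol III can transcribe, and their start derives from a tRNA. The letters GATGGCTCA and AAGAGCAC, which stand in that start, were searched on both strands after the sequences had been seen. GATGGCTCA was found in 5 of these 7 stretches, in 3 of the 6 stretches high for both with no gene matched, in 24 of all 77 stretches with no gene matched and in 34 of 532 (6.39%). AAGAGCAC was found in 5 of 7, 23 of 77 and 32 of 532 (6.01%). In the sequence near Parp16 above they stand next to each other. Among the 77, the 24 with GATGGCTCA had median RPB2 coverage of 4.02 and 3.51 and the 53 without it 2.65 and 2.57, with median Pol III coverage of 0.869 and 0.803. Median mark coverage was 0.565 and 0.580 with the letters and 0.303 and 0.558 without them. A match of letters is no evidence of a transcribed element.

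The U6atac stretch, which codes for a spliceosomal RNA made by Pol III, and the tRNA-Ile (AAT) stretch on chromosome 11 differed from these in Pol III. Their Pol III coverage was 16.4 and 13.3. At U6atac RPB2 was 5.57 and 5.53 and the mark 0.5 and 0.0980, with input of 1.59 and 0. At the tRNA-Ile (AAT) stretch (chr11:68875672-68876045) RPB2 was 11.8 and 8.76 and the mark 0.511 and 0.234.

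By the rank rule, stretches high for the mark and not for RPB2 were rare, and their mark was weak. The tRNA-Glu (CTC) stretch 673 bp from the start of Acp6 had mark coverage of 6.09 and 4.40 and RPB2 of 1.51 and 1.99. The tRNA-Arg (ACG) stretch near Btn1a1 (chr13:23538511-23538883) had a mark of 4.89 and 4.96 and RPB2 of 1.37 and 1.85. For comparison, the limits for high were 4.43 and 4.29 in the mark, and those for not high 1.79 and 2.25 in RPB2 (first and second library). Neither stayed in the class when coverage was taken within 75 bases of the Pol III summit, which put 4 other stretches there, and none remained at the 0.8 quantile. Input at them was 3.73 and 3.51, and 3.09 and 0. Some stretches described below had far more mark, with RPB2 near or below scaled input. Their RPB2 was above its median over stretches, so they fell outside the mark-only class.

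The share of each library was compared next, stretch by stretch, with limma on log2 values. With totals as the scale, 184 of 478 stretches tested (38.5%) had a larger RPB2 share and 67 (14%) a larger H3K4-titled share at a Benjamini-Hochberg adjusted p under 0.05. These counts depend on the scale and on single libraries. Median-of-ratios scaling gave 121 and 122, and anchoring to stretches with little Pol III gave 9 and 279. Without RPB2 replicate 1 they were 47 and 40, and without RPB2 replicate 2 they were 42 and 32. The median of all log2 differences was 1.12 with totals, 0.42 with median of ratios and -2.14 with anchoring, so no direction is given for stretches as a whole.

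Differences that kept their sign under all of these scales were found in both directions. The 3 highest Pol II-only stretches had log2 differences of 8.67 (SE 0.43, limma adjusted p = 7.43e-05) near Parp16, 7.49 (SE 0.51, adjusted p = 0.000275) near Bhmt and 7.43 (SE 0.29, adjusted p = 3.76e-05) near Slc38a3. The class was picked for this difference, so these values describe it. With anchoring they were 5.75, 4.56 and 4.25.

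In the other direction, 2 stretches with no gene matched near Klrb1c and Klrb1b, receptors of natural killer cells, had the mark far above RPB2. At chr6:128748702-128749809 the mark was 77.6 and 69.9 and RPB2 4.81 and 5.54 (log2 difference -3.81, SE 0.17, adjusted p = 6.48e-05). At chr6:128788774-128789346 the mark was 39.4 and 39.3 and RPB2 3.10 and 3.69 (-3.50, SE 0.19, adjusted p = 0.000127). Another such stretch, chr6:128792926-128793580, had 60.4 and 67.6 against 11 and 13.1 (-2.40, SE 0.17, adjusted p = 0.000329), but within 75 bases of its summit the sign turned, to 0.33. Pol III coverage of these stretches was 12.6, 8.75 and 15.6. Scaled input was 7.92 and 6.31 at the first, above RPB2, and 3.27 and 3.98 at the second, close to RPB2. At the third it was 8.78 and 4.46.

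Some tRNA genes also had a much larger mark share than RPB2 share, with RPB2 above its median over stretches but below scaled input. Input was 3.85 and 7.48 at the tRNA-Phe stretch described next and 6.43 and 8.29 at the tRNA-Arg (ACG) stretch after it. At the tRNA-Phe (GAA) stretch near Dct (chr14:118488597-118488969) the mark was 46.2 and 35.9 and RPB2 3.27 and 3.17 (log2 difference -3.63, SE 0.21, adjusted p = 0.000135). At a tRNA-Arg (ACG) stretch in an intron of 1700064H15Rik (chr3:19527809-19528181) the mark was 45.1 and 39.7 and RPB2 6.25 and 4.57 (-2.97, SE 0.22, adjusted p = 0.000345). A further tRNA-Arg, with the anticodon CCG, near Kpna2 (chr11:106874030-106874402) had the reverse, RPB2 of 33.3 and 39.2 and a mark of 4.31 and 3.41. Its log2 difference of 3.21 (SE 0.21, adjusted p = 0.000275) turned to -0.19 with anchoring, and its direction is therefore not settled.

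The position of the signals within a stretch does not depend on scaling between libraries. Over the 53 single tRNA genes high for both, aligned on the gene, the mark was lowest over the gene and highest at the upstream end. Relative to the mean of each stretch, it was 2.35 and 2.42 at 180 bp upstream of the middle of the gene, 0.45 and 0.48 at the middle, and 1.35 and 1.20 at 180 bp downstream. RPB2 had no such trough. It was 0.97 and 1.02 at 180 bp upstream, highest at 68 and 90 bp upstream, 1.22 and 1.18 at the middle and 0.45 and 0.44 at 180 bp downstream. RPC1 was highest at 46 and 45 bp upstream and RPC4 at 7 and 10 bp downstream of the middle. Input was 0.99 and 0.89 at the middle, with 1.57 and 1.18 at the upstream end. The 2 replicates of the mark and of RPB2 had nearly the same course. Reads were not extended to the length of fragments, so positions carry an error of the order of a fragment.

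**Figure D3:**
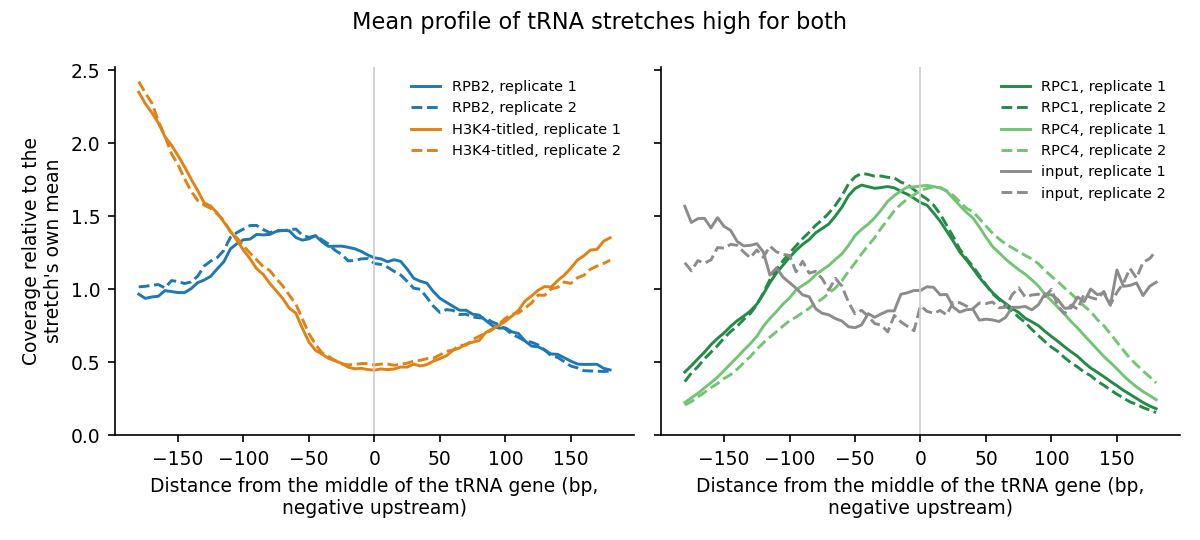
Mean coverage relative to each stretch's own mean (vertical axis, from 0) against distance in bp from the middle of the gene (negative upstream) over 53 tRNA stretches high for both, with 1 line per library. The mark falls from above 2.3 at the upstream end to under 0.5 over the gene, and RPB2 falls from its upstream maximum to about 0.45 at the downstream end.

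This trough of the mark was tested as coverage within 40 bases of the Pol III summit against 75 to 150 bp on both sides, in 137 stretches with enough reads. In the mark, 65 (47.4%) were lower at the centre and 4 (2.92%) higher. In RPB2, 3 (2.19%) were higher and 0 (0%) lower by limma. At an unadjusted p under 0.05, RPB2 was higher at 31 and lower at 4. The difference was called at 58 stretches (42.3%) with RPB2 above the mark and at 1 (0.73%) below. The medians of the log2 ratio were 0.46 for RPB2 and -1.0 for the mark. These counts rest on few libraries: without H3K4-titled replicate 1, no stretch was called lower in the mark, higher in the mark or different by limma. Without H3K4-titled replicate 2, the mark was lower at 40 and higher at 1, and without RPB2 replicate 1 the difference was called at 27. Without RPB2 replicate 2 they were 36 and 10, and in a fit of all 12 libraries 4 and 0, while the median mark ratio without H3K4-titled replicate 1 was still -0.86.

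Of the 67 tested stretches high for both, 39 had the trough (58.2%), and of the 70 others 26 (37.1%). The largest difference called was at the tRNA-Gln (CTG) gene near Rab11a. There the mark had log2 ratios of -3.00 and -3.41 and RPB2 of 0.91 and 0.49, a difference of 3.90 (SE 0.49, limma adjusted p = 0.00335). Among the 4 stretches with more mark at the centre were tRNA-Glu (TTC) near Wbp4 (1.17 and 0.77) and 3 with no gene matched, near Zfp259, near Klrb1c and on chromosome 8. Pol III coverage was 0.592 near Zfp259 and 0.902 on chromosome 8, under the median of 1.89 over all stretches. The summit of these stretches thus rests on little Pol III signal. The single stretch called with the mark above RPB2 at the centre was the gene beside Parp2, with 0.42 and 0.30 for the mark and -0.79 and -0.95 for RPB2 (difference -1.23, SE 0.35, adjusted p = 0.0267).

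Which side of the summit each signal favoured was measured as log2 of downstream over upstream coverage, up to 150 bp on each side along the gene, in 215 stretches whose gene strand was known and whose group means reached 5 reads. The mark was higher upstream at 83 stretches (38.6%) and higher downstream at 34 (15.8%). RPB2 was higher upstream at 19 (8.84%) and downstream at 1 (0.465%). None of these calls fell on the 43 5S stretches tested, although RPB2 was higher downstream in both replicates at 37 of them and higher upstream in both at 4. Over all 215, both RPB2 replicates were higher upstream at 86 and downstream at 73, and both mark replicates at 104 and 79. Over the 172 stretches other than 5S the median log2 values were -0.24 and -0.43 in the RPB2 libraries and -0.80 and -0.90 in the H3K4-titled libraries. Both RPB2 replicates were lower downstream at 82 of the 172 and higher at 36. Both mark replicates were lower downstream at 98 and higher at 62. As background over the same stretches, the mean of medians was -0.36 for RPC1 and 0.33 for RPC4 (n = 2 each), and -0.07 for input.

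Outside the 5S genes both signals thus lay more often upstream. Of the 83 stretches with the mark upstream, 13 also had RPB2 called upstream, and at the other 70 RPB2 was called on neither side. At 3 stretches the mark was called downstream and RPB2 upstream. The RPB2 call is the less certain: it fell from 19 to 6 with flanks of 100 bp, to 12 about the middle of the gene and to 0 in a fit of all 12 libraries, and rose to 31 with the 40 bases next to the summit left out and to 33 without either H3K4-titled library. The mark counts were 27 and 12 in the fit of all 12 libraries. Calls of RPB2 and of the mark share an error estimate, so the count of each also depends on the other's libraries.

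The flank values of the signals differed from each other at 48 stretches with RPB2 more downstream than the mark (22.3%) and at 25 with RPB2 more upstream (11.6%). With flanks of 100 bp these were 27 and 14, about the middle of the gene the first was 21, and with all 12 libraries in the fit they were 4 and 2. In the 60 tested stretches high for both, the mark was upstream at 32 and downstream at 15, and RPB2 upstream at 14 and downstream at 0. Among the 84 tested stretches with no other stretch within 1000 bp, 39 had the mark upstream and 18 downstream. With another stretch that near on the downstream side (51) these were 20 and 12, and with one on the upstream side (58) they were 31 and 7. The part of neighbours in the flank values was not tested.

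**Figure D4:**
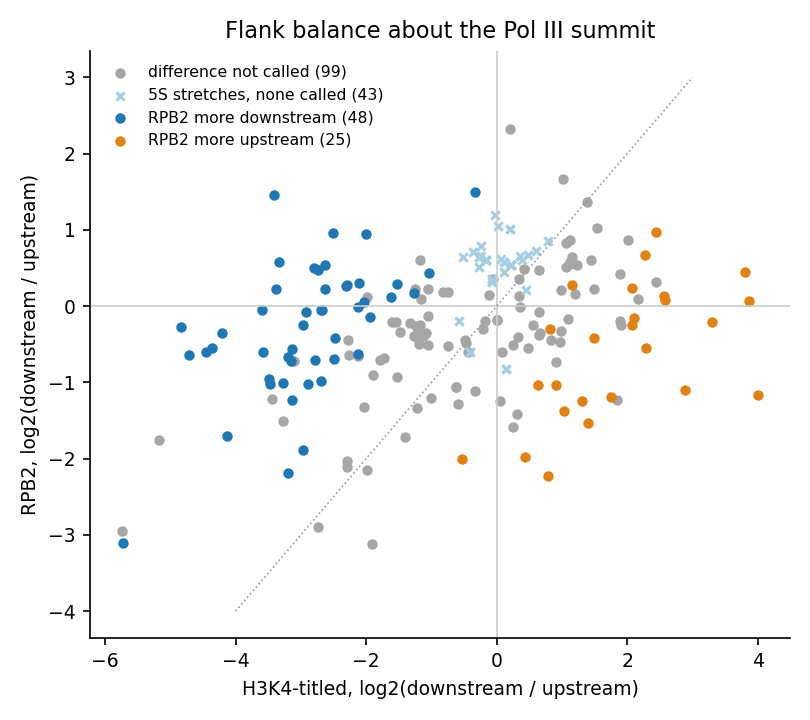
Each point is 1 of 215 stretches, with log2 of downstream over upstream coverage of the mark on the horizontal axis and of RPB2 on the vertical axis (means of 2 libraries), coloured by the call of the difference. The mark reaches 4.00 on the downstream side and RPB2 2.32. The 48 stretches with RPB2 more downstream lie above the line of equal values and the 25 with RPB2 more upstream lie below it.

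The tRNA-Gln (CTG) gene 336 bp before Rab11a (chr9:64585703-64586074; sequence above) had the mark on its upstream side alone. Mark values were -4.95 and -4.71 and RPB2 values -0.05 and -0.49, a difference of 4.56 (SE 0.46, limma adjusted p = 0.000465). RPB2 coverage of the whole stretch, 7.53 and 6.53, was close to scaled input of 7.27 and 5.63. The upstream flank faces the start of Rab11a, a GTPase of membrane recycling. RPB2 coverage was 17.2 and 12.6 at 160 bp upstream of the middle of the gene, 2.15 and 3.45 at 80 bp upstream and 8.61 and 8.04 at the middle. The mark fell over the same positions from 36.4 and 49.5 through 27.1 and 26.2 to 1.87 and 1.79. At the tRNA-Asn (GTT) stretch near Psmb3, a proteasome subunit, the mark was -4.70 and -4.72 and RPB2 -1.47 and 0.20 (difference 4.07, SE 0.56, adjusted p = 0.0015). RPB2 coverage there was 9.19 and 8.33, close to input of 8.32 and 6.91. A tRNA-Thr (AGT) stretch near Btn1a1 (chr13:23542341-23542714) had the largest difference of this kind, 4.88 (SE 1.14, adjusted p = 0.0133). Its mark values were -3.43 and -3.40, but its RPB2 values were -0.57 and 3.49, from 19.8 and 4.88 reads, so the replicates of RPB2 lay on opposite sides.

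The opposite arrangement was found at tRNA-Thr (CGT) near Rab11fip4 (chr11:79518002-79518373). The mark had flank values of 3.95 and 3.79, almost all of it downstream, and RPB2 0.66 and -0.52 (difference -3.80, SE 0.48, adjusted p = 0.00135). RPB2 coverage of this stretch was 10.4 and 12.5, above input of 2.96 and 0.966. At the tRNA-Cys (GCA) stretch of chr11:97850087-97850458 near Plxdc1 the mark had 3.73 and 3.89 and RPB2 0.56 and 0.35 (difference -3.36, SE 0.38, adjusted p = 0.000665). RPB2 coverage there was 6.12 and 5.65, close to input of 5.38 and 5.15. The tRNA-Pro (AGG) stretch near Mpzl1 (chr1:167571615-167571986) had the largest difference, -5.17 (SE 0.69, adjusted p = 0.00144), from mark values of 3.28 and 4.73 and RPB2 values of -0.44 and -1.90. Another stretch, with tRNA-Pro (CGG), starts 266 bp downstream of it. RPB2 coverage of the tRNA-Pro (AGG) stretch was 7.47 and 2.58 and input 2.45 and 4.83. The tRNA-Gly (GCC) stretch near Hist1h4h, a histone H4 gene, had a difference of -3.98 (adjusted p = 0.0054) at mark coverage of 1.21 and 1.10, and its neighbour lies 119 bp away. RPB2 coverage of the tRNA-Gly stretch was 2.81 and 1.65 and input 0 and 4.32.

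**Figure D5:**
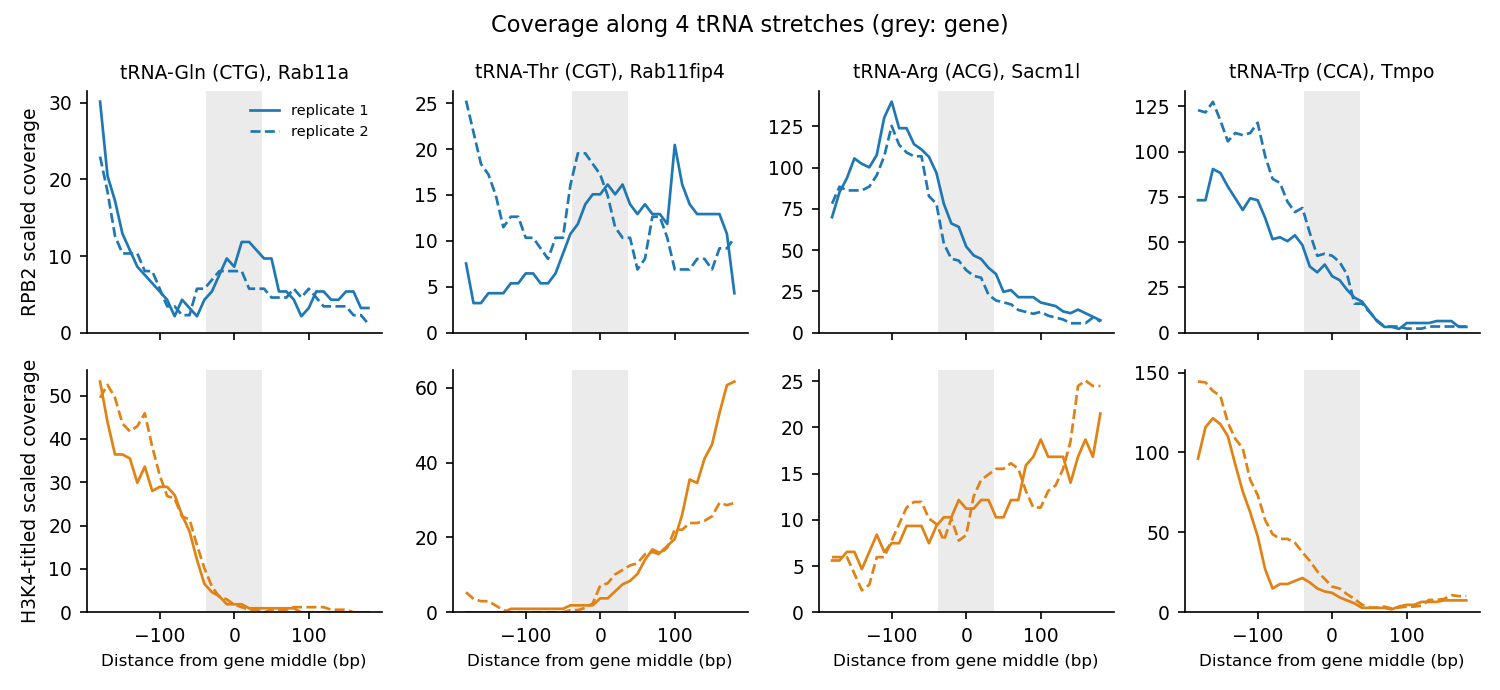
Scaled coverage (vertical axes from 0, each with its own scale) against distance from the middle of the gene in bp at 4 tRNA stretches chosen after the values were seen, RPB2 above and H3K4-titled below, with 1 line per replicate and the gene shaded. The mark lies upstream near Rab11a and Tmpo and downstream near Rab11fip4, and RPB2 lies upstream near Sacm1l and Tmpo.

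RPB2 leaned most clearly at a few strongly covered genes. The tRNA-Arg (ACG) gene near Sacm1l, a phosphoinositide phosphatase gene, had RPB2 coverage of 61.0 and 50.7 and a mark of 11.5 and 12.2. Its RPB2 flank values were -2.01 and -2.43 (mean -2.22, SE 0.23, adjusted p = 0.000639), while the mark's were 0.75 and 0.81 (mean 0.78, SE 0.23, adjusted p = 0.0197). Pol II thus lay upstream, toward the start of Sacm1l at 423 bp, and the mark slightly downstream, away from it. The tRNA-Met (CAT) stretch near Fam83a and the vault RNA stretch near Zmat2 were the other 2 with opposite calls. RPB2 was -1.54 and the mark 1.4 at the first, and -1.19 and 1.75 at the second.

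At the tRNA-Trp (CCA) stretch near Tmpo both signals lay upstream, RPB2 at -2.00 and -2.37 and the mark at -3.23 and -3.18. The tRNA-Arg (CCG) stretch near Kpna2 had RPB2 at -2.59 and -3.19 and the mark at -3.04 and -2.44, with no difference called (-0.15, SE 0.42, adjusted p = 0.794). The largest mean RPB2 values came from thinly covered stretches. They included -3.12 at tRNA-Thr (CGT) near Gpx5, from 5.53 and 11.9 reads, and -3.10 at tRNA-Glu (CTC) near Ncoa7, from 8.82 and 11.9 reads. The mark was at -5.73 near Ncoa7 and -5.17 at tRNA-Trp (CCA) near Aurkb. The 1 stretch with RPB2 called downstream was a tRNA-Lys (CTT) on chromosome 17 near Gm5146, with values of 2.01 and 0.97 from 7.87 and 9.20 reads.

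The sides were also read against the nearest protein-coding start, in 51 stretches with a start 75 to 2000 bp away. The mark was higher toward the start at 20 (39.2%) and away from it at 9 (17.6%, and 5 without H3K4-titled replicate 2), and RPB2 toward it at 4 (7.84%) and away at 2 (3.92%). The mark leaned more toward the start than RPB2 at 11 stretches (21.6%) and RPB2 more than the mark at 6 (11.8%). In a fit of all 12 libraries these differences were called at 0 and 0, and the mark at 6 and 2. Rab11a, Psmb3 and tRNA-Ser (GCT) near Casc5 were among the 11, the last with 2.93 and 3.36 for the mark and 0.94 and 0.51 for RPB2. Sacm1l led the 6, which also held the 7SL gene near Rps29, the RNA of the signal recognition particle, with -2.01 and -0.96 for the mark and 0.50 and 0.33 for RPB2.

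The flank values along the gene were also counted by the place of the nearest protein-coding start. Where a start lay within 2000 bp on the upstream side (25 stretches), the mark was called upstream at 10 and downstream at 5. Where it lay within 2000 bp on the downstream side (18), the mark was called upstream at 5 and downstream at 5, with median flank values of 0.41 and 0.34. Among the 129 stretches other than 5S with a start over 2000 bp away, 68 had the mark upstream and 24 downstream, with median flank values of -1.01 and -1.08 in the 2 libraries. RPB2 was called upstream at 16 of them and downstream at 1, with medians of -0.25 and -0.43. Where the nearest start lay upstream of the gene the mark was called upstream at 29 of 59, and where it lay downstream at 39 of 70. The corresponding counts of the mark downstream were 13 and 11.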

How the data were processed

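Coverage signal per base in mm9 (build per the submitters' processing notes) was deposited by the authors as 1 track per library, with replicates kept separate. The aligner is not given in the sources used here. Per the labels' protocols, fragments of about 250 bp, adapters included, were amplified for 15 cycles. Isolated reads have height 1.0 over 76 bases (1479 of 1502), so the deposited coverage is not scaled or extended, and fractional values show reads divided among copies.

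Libraries were scaled to totals over the shared stretches. Log2 values (pseudocount 0.0843, the 0.05 quantile of nonzero values) entered limma 3.58.1 (R 4.3.3, variance trend, 2 libraries against 2). The level test skipped stretches whose mean lay under the 0.1 quantile. Tests were two-sided, and calls were made at 0.05 after Benjamini-Hochberg adjustment over all stretches tested. Flank and centre tests needed 5 reads in the mean of each group. On simulated data 54 of 94 changes of 4-fold were recovered among 478 stretches, with 0 false calls among 384. For the flanks 19 of 30 were recovered among 222, with 0 false calls among 192. The simulation gave both groups the same mean level and set changes alike in both directions. It therefore does not bear on the choice of scale.

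Named stretches were the 5 largest of each class, the 5 highest in each group, the 5 smallest adjusted p in each direction of the level difference, and, among calls, the 3 most upstream and downstream flank values of each group and the 3 largest flank differences in each direction. Others were chosen after their values were seen, as were the printed sequences, the example profiles and the 2 motifs of B2 elements. Members and lists were chosen with earlier results of these data known. Alternatives were scaling, pseudocount, filters, window, replicate block and leaving out each library. A stretch that this rule names, and the sequence of another, are not reported here.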

Additional observations from a re-analysis of the deposited data

Results flagged for a closer look

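RPB2 and the H3K4-titled signal differed in shape along the same stretches by the limma test of the difference itself. For the flanks, RPB2 lay more downstream at 48 stretches and more upstream at 25 of 215. Toward the nearest protein-coding start, RPB2 leaned more than the mark at 6 of 51 stretches and less at 11. Over the centre of the Pol III signal, RPB2 was higher relative to its shoulders than the mark at 58 of 137 stretches and lower at 1.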

How the results depend on the processing

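With all 12 libraries in the fit, the mark was called upstream at 27 stretches, downstream at 12, toward the start at 6, away from it at 2, lower at the centre at 4 and higher at 0. RPB2 was called upstream at 0. Differences were called at 4 and 2 (flank), 0 and 0 (start side) and 0 and 0 (centre), and a larger H3K4-titled share at 29. Anchored scaling gave 9 larger RPB2 and 279 larger mark shares, median of ratios 121 and 122. Within 75 bases of the summit, 22 had a larger mark share and 4 were mark only, and the 0.8 quantile left 0 mark only. Flanks of 100 bp gave 6 RPB2 upstream, differences of 27 and 14, and 6 with the mark more toward the start. Leaving out 40 bases gave 31 RPB2 upstream. About the middle of the gene, RPB2 was upstream at 12, the difference downstream at 21, the mark away from the start at 5 and higher at the centre at 7. A minimum of 10 reads gave 39 lower at the centre and 38 differences. The causes of these changes were not tested.

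Leaving out 1 library in turn gave ranges of 42 to 176 for a larger RPB2 share, 32 to 59 for a larger mark share, 64 to 80 for the mark upstream, 28 to 39 downstream, 15 to 33 for RPB2 upstream, 14 to 21 for the mark toward the start and 5 to 10 away. For differences they were 42 to 50 and 23 to 30 (flank), 4 to 6 and 8 to 13 (start side), and 0 to 50 and 0 to 1 (centre). The mark was lower at the centre at 0 to 66 and higher at 0 to 3. Classes held 71 to 80 (both), 11 to 14 (Pol II only) and 2 to 7 (mark only).

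Replicate numbers do not pair samples by the labels, and replicate differences of RPB2 and the mark correlated at 0.06 (level), -0.01 (flank) and 0.10 (centre). With the replicate block RPB2 was upstream at 5, the mark upstream at 77 and the flank differences were 40 and 18.

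Level differences reversed within 75 bases of the summit at chr6:128709861-128711030 (0.14), chr6:128792926-128793580 (0.33) and the tRNA-Gln near Rab11a (0.80), and with anchoring at the tRNA-Arg near Sacm1l (-1.19) and near Kpna2 (-0.19). Of 273 level values at named stretches under alternatives, 30 lost their call and 5 reversed, and of 452 flank values 68 lost their call and 0 reversed. Without 5S stretches, added after seeing the data, the mark was upstream at 78 and RPB2 at 23. A median of 5.41 and 5.5 input reads a stretch limits comparison with input.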
